A study of Mus musculus with 7 samples.

Results

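The heterogeneous nuclear ribonucleoproteins (hnRNPs) are abundant nuclear proteins that bind nascent RNA and take part in its splicing, export, translation and decay. Several of their genes make alternative coding forms by including or leaving out short stretches, and several control their own level through transcripts that retain introns or that nonsense-mediated decay removes. Described here are 10 hnRNP genes, Hnrnpa0, Hnrnpa1, Hnrnpa2b1, Hnrnpa3, Hnrnpc, Hnrnpd, Hnrnpk, Hnrnpl, Hnrnpm and Hnrnpu, chosen by gene name together with a change in the forms of Hnrnpa3 that was already known from these libraries. They hold 91 of the 55404 transcripts used and 10 of 16143 genes, and all 91 transcripts are accounted for. By the transcript type given in the deposited tables, 49 are protein_coding, 29 retained_intron, 11 nonsense_mediated_decay and 2 processed_transcript.

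The libraries came from retinas of ICR mice, an outbred stock, at embryonic day 17.5 plus 2 days in vitro. All explants had been electroporated with an EGFP plasmid, together with either a control plasmid (control, 3 libraries) or a plasmid for a short hairpin RNA directed at Kmt2f (shKmt2f, 4 libraries). Kmt2f is another name of Setd1a, a methyltransferase for lysine 4 of histone H3. RNA was taken from the sorted EGFP-positive cells, so a group is a mixture of the retinal cells that took up plasmid, and the labels name 1 hairpin plasmid. The labels do not tie the libraries of a group to different animals or cultures. The spread between them may therefore be technical in part, though the controls were not alike in Y-linked RNA, as given below. Values are TPM, a per-length share of the transcripts in a library. They keep no sequencing depth, so the counting error behind each value is unknown.

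The libraries differed in ways beside the hairpin. The longest Setd1a transcript, of 6487 bases, stood at 0.767, 0.959 and 0.764 TPM in the control libraries and at 0.407, 0.328, 0.374 and 0.432 TPM in the shKmt2f libraries, which did not overlap (exact permutation test, two-sided, p = 0.0286, the smallest that 35 splits can give). The sum of its 4 listed transcripts did overlap between the groups, at 8.95 ± 2.36 against 6.94 ± 1.71 TPM (SD, n = 3 and n = 4). Summed over 7 photoreceptor precursor markers, expression lay between 708.3 and 1095.8 TPM in the controls and between 1651.6 and 2124.0 TPM in the shKmt2f libraries, with 5 of the 7 genes higher in the fit across all genes. The 8 retinal progenitor markers summed to between 924.3 and 1153.6 TPM in the controls and to between 813.7 and 923.1 TPM in the shKmt2f libraries, with Hes5 lower and the other 7 not called. In bulk libraries such as these, a changed number of cells of a type and a changed amount of RNA per cell cannot be told apart. The 5 ganglion cell markers summed to between 10.4 and 15.1 TPM in the controls and between 24.5 and 28.5 TPM in the shKmt2f libraries. The 2 tested, Gap43 and Isl1, were higher, and most of the sum was Gap43, at 10.6 ± 2.46 and 22.1 ± 2.50 TPM. Pou4f2, Pou4f1 and Sncg were too low to test, at 0.542 TPM or less in each library, and the mean of Sncg was lower in shKmt2f. The amacrine and horizontal cell markers summed to between 71 and 80.1 TPM in the controls and between 91.2 and 94.9 TPM in the shKmt2f libraries, with 2 of 4 tested higher. Of the other cell types, 2 of 3 endothelial markers summed to between 15.6 and 28.7 TPM over all libraries, and the 1 tested was not called. Both astrocyte markers and 1 of 4 microglial markers summed to at most 1.05 and 1.54 TPM, and 1 of 3 lens and 1 of 5 pigment epithelium markers stood at 0.161 TPM or less and 0.255 TPM or less. The other markers of these lists and the 3 red cell markers were not analysed here. The level of a gene also leaned on its GC content by library, with a slope of 0.248 and 0.407 on the log2 scale per 10% GC in control replicates 1 and 3, of -0.044 in control replicate 2, and between -0.181 and -0.118 in the shKmt2f libraries. It leaned on transcript length as well. The slope per doubling of length was -0.131, -0.021 and -0.024 in the controls and 0.040, 0.107, 0.002 and 0.026 in the shKmt2f libraries, with no overlap between the groups. The Y-linked gene Eif2s3y was at 1.85 TPM in control replicate 1 and 3.52 TPM in control replicate 2, at 0.154 TPM in control replicate 3 and at 0.0601 TPM or less in each shKmt2f library. Uty, also Y-linked, was at 1.78, 2.24 and 0.0929 TPM in the controls and at 0.0425 TPM or less in each shKmt2f library. Y-linked RNA thus differed among the control libraries as well as between the groups. Whether these differences contribute to the results below was not tested, except where a value is given.

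Hnrnpa3 (ENSMUSG00000059005, chr2:75659261-75669407 on the plus strand of GRCm38) encodes an hnRNP of the A/B class that binds RNA through a pair of RNA recognition motifs followed by a glycine-rich tail. The GENCODE M21 annotation gives it 7 transcripts, of which 5 are in the tables. A single transcript, Hnrnpa3-207 (ENSMUST00000164947.8, protein_coding, 1074 bases), was listed at 0 in all 3 control libraries and was detected in all 4 shKmt2f libraries, at 6.87, 5.74, 5.35 and 6.86 TPM. It made up 23.1%, 19.4%, 16.8% and 19.5% of the Hnrnpa3 sum there, or 19.7% ± 2.59 (SD, n = 4). The sum of the gene did not separate the groups in the same way. It was 25.3, 33.6 and 25.1 TPM in the controls and 29.7, 29.5, 31.8 and 35.2 TPM in the shKmt2f libraries, and the groups overlapped.

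The coding forms of Hnrnpa3 differ by 2 optional stretches, which are printed here because they tell the forms apart. The sequences are from the GENCODE M21 transcripts, 5′ to 3′ on the plus strand, with the optional bases in capitals. The stretch of 66 bases (22 codons) at chr2:75659324-75659389 is the end of the first exon of Hnrnpa3-202 and is absent from Hnrnpa3-203 and Hnrnpa3-207. Both lines begin at the start codon.
Hnrnpa3-202: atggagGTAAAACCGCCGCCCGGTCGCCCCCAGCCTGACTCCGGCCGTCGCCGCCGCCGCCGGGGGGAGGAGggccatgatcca
Hnrnpa3-207: atggagggccatgatcca
The stretch of 183 bases (61 codons), in 2 pieces at chr2:75662845-75662925 and chr2:75663571-75663672, is held by Hnrnpa3-203, Hnrnpa3-206 and Hnrnpa3-207 and is absent from Hnrnpa3-202.
Hnrnpa3-207: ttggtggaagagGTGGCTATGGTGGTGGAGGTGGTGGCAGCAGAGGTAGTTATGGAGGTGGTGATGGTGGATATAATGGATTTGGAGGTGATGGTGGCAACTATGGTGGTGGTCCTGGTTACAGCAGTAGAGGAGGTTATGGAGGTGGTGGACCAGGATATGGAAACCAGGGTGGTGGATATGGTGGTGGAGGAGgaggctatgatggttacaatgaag
Of its 61 codons, 38 are GGN, the codons of glycine, or 62.3%, against 21.3% of the 296 codons in the rest of the Hnrnpa3-207 coding sequence. Both stretches are a multiple of 3 bases long and lie wholly in coding sequence.

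Hnrnpa3-207 has no sequence of its own. Its 1074 bases are bases 52 to 1125 of the 5150-base Hnrnpa3-203, or 20.9% of that transcript, and the pair have the same coding exons. Hnrnpa3-207 differs by its ends: Hnrnpa3-203 carries 51 bases before and 4028 bases after the coding sequence, Hnrnpa3-207 carries 0 and 3. A read from Hnrnpa3-207 therefore also matches Hnrnpa3-203, and the division of reads between them was estimated by Salmon, not counted. Of the other 90 transcripts of these genes, Hnrnpl-201 alone is likewise wholly contained in another listed transcript of its gene.

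**Figure D1:**
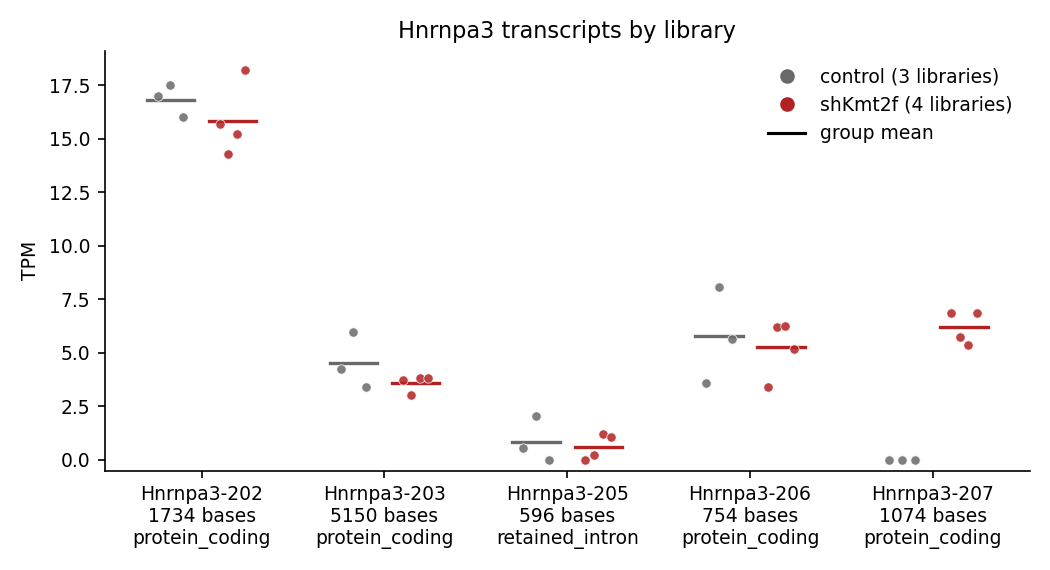
Level in TPM of the 5 listed Hnrnpa3 transcripts. Each point is 1 library (grey, 3 control; red, 4 shKmt2f) and each short line a group mean, left out where all libraries are at 0. Hnrnpa3-207 is listed at 0 in the 3 control libraries and lies between 5.35 and 6.87 TPM in the shKmt2f libraries, while the groups overlap for the other 4 transcripts.

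The other Hnrnpa3 transcripts overlapped between the groups in TPM. Hnrnpa3-202, the most abundant form, stood at 17.0, 17.5 and 16.0 TPM in the controls and at 15.7, 14.3, 15.2 and 18.2 TPM in the shKmt2f libraries, a log2 fold change of -0.09 (SE 0.12) on the log2(TPM + 1) scale used for all fold changes here. Hnrnpa3-203 stood at 4.24, 5.96 and 3.43 TPM and at 3.72, 3.03, 3.85 and 3.84 TPM, a log2 fold change of -0.24 (SE 0.20). Hnrnpa3-206, a coding model of 754 bases with 582 coding bases, was at 3.58, 8.07 and 5.67 TPM and at 3.43, 6.19, 6.24 and 5.16 TPM. Hnrnpa3-205, the retained_intron form, was low and listed at 0 in control replicate 3 and shKmt2f replicate 1, with a highest value of 2.04 TPM. For each of these 4 the range over the controls was wider than the difference between the group means.

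As shares of the gene sum, Hnrnpa3-202 went from 67.0%, 52.1% and 63.8% in the controls to 52.8%, 48.6%, 47.7% and 51.8% in the shKmt2f libraries, where the groups overlap through control replicate 2. The share of Hnrnpa3-203 was 16.7%, 17.8% and 13.6% in the controls and 12.5%, 10.3%, 12.1% and 10.9% in the shKmt2f libraries, with no overlap. Neither difference remained once the short form was set aside. With Hnrnpa3-207 left out of the sum, Hnrnpa3-202 made up 61.0% ± 7.82 in the controls and 62.7% ± 4.92 in the shKmt2f libraries, and Hnrnpa3-203 made up 16.0% ± 2.15 and 14.3% ± 1.52 (SD, n = 3 and n = 4), and the groups overlapped.

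The same holds for the optional stretches. Forms with the stretch of the first exon made up 80.0%, 74.6% and 82.4% of the TPM of forms that hold or lack it in the controls and 59.7%, 62.1%, 62.3% and 63.0% in the shKmt2f libraries, with no overlap. Forms with the GGN-rich stretch made up 31.5%, 44.5% and 36.2% in the controls and 47.2%, 51.0%, 50.4% and 46.6% in the shKmt2f libraries, again with no overlap. Weighted by length the differences were smaller. The first stretch was then held by 56.1% ± 5.84 in the controls and 52.1% ± 1.66 in the shKmt2f libraries, and the GGN-rich stretch by 48.1% ± 5.82 and 51.6% ± 1.59. Without Hnrnpa3-207 the first stretch was held by 79.0% ± 4.00 in the controls and 81.4% ± 1.37 in the shKmt2f libraries, and the GGN-rich stretch by 37.4% ± 6.56 and 35.9% ± 4.30 (SD, n = 3 and n = 4), with overlap for both. No difference in either stretch beyond the spread was thus seen among the forms other than Hnrnpa3-207.

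Because the short form lies inside the long one, their total was also taken per base. Hnrnpa3-203 and Hnrnpa3-207 together stood at 4.54 ± 1.30 TPM in the controls and 9.81 ± 0.977 TPM in the shKmt2f libraries (SD, n = 3 and n = 4), with no overlap, and made up 16.0% ± 2.15 and 31.2% ± 3.04 of the gene sum. TPM times length in kilobases, which follows the amount of sequence and not the number of molecules, was 23.4 ± 6.68 in the controls and 25.3 ± 2.41 in the shKmt2f libraries for the pair, and 57.4 ± 9.73 and 57.1 ± 4.85 for all Hnrnpa3 transcripts. Both overlapped between the groups. In the same unit Hnrnpa3-203 alone was at 23.4 ± 6.68 and 18.6 ± 2.01, and Hnrnpa3-207 was at 7.37, 6.16, 5.74 and 7.37 in the shKmt2f libraries. The higher TPM of this pair of transcripts in the shKmt2f libraries thus stood beside amounts of sequence that did not differ beyond the spread between libraries.

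**Figure D2:**
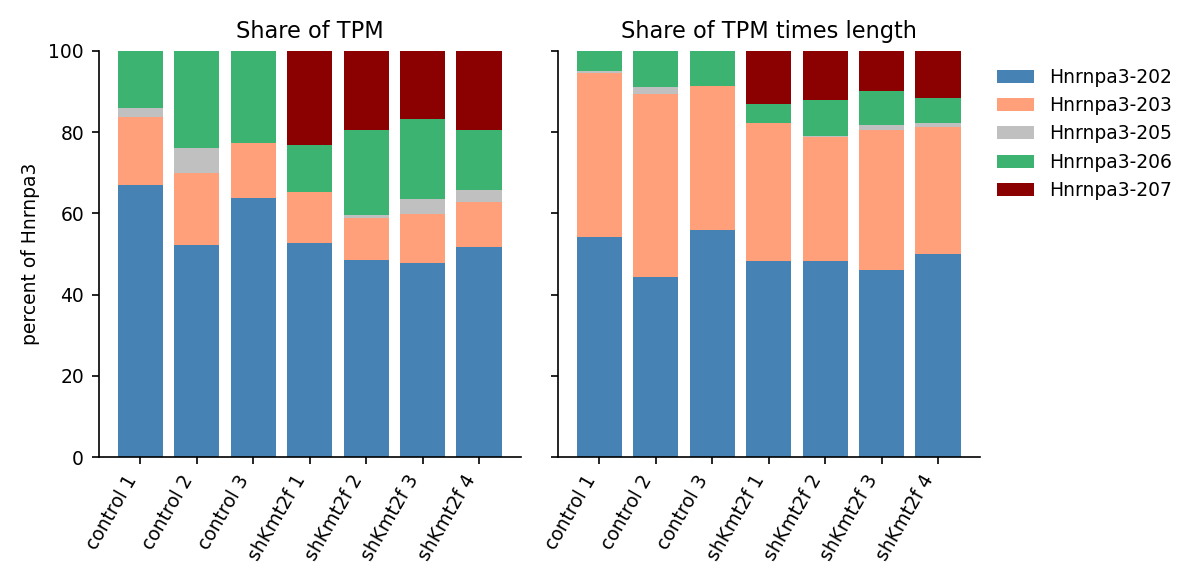
Make-up of Hnrnpa3 in each library (bars, 3 control and 4 shKmt2f) as percent of TPM (left) and as percent of TPM times transcript length (right), with a colour for each of the 5 listed transcripts. Hnrnpa3-207 takes 16.8% to 23.1% of TPM in the shKmt2f libraries, and by length the pair Hnrnpa3-203 and Hnrnpa3-207 takes 35.5% to 44.9% in the controls and 42.3% to 47.1% in the shKmt2f libraries.

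A level of 0 in all controls and of at least 1 TPM in all shKmt2f libraries was seen for 36 of 55404 transcripts, or 0.065%, and the opposite pattern for 0. The first pattern asks for 0 in 3 libraries and the opposite one in 4, and the controls held more zeros in general, at 2513 to 4074 transcripts per library against 1839 to 2499 in the shKmt2f libraries. At 5 TPM or more there were 3, Hnrnpa3-207, the zinc finger gene Zfp260 and the pseudogene RP23-240G18.2, named because they are so few. Transcripts wholly contained in another listed transcript of their gene numbered 527 in all, and of the 36 only Hnrnpa3-207 was among them. Among genes of at least 5 TPM in each library, contained transcripts were at 0 in 1.33% to 5.84% of cases per library (377 transcripts) and other transcripts in 2.70% to 5.79% (38208 transcripts). Of these, 1 of 377 contained and 96 of 38208 others were at 0 in all controls and above 0 in all shKmt2f libraries. The 1 contained transcript was Hnrnpa3-207 itself, for which the members were chosen. These counts therefore do not tell how often containment goes with this pattern. In the authors' deposited table, Hnrnpa3-207 has an effect of 6.29 on a natural log scale. On log2(TPM + 1) its log2 fold change was 2.84 (SE 0.16). With 0 in all controls, the size of either value depends on how 0 is handled and is not a measured ratio.

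The tables list 4 processed pseudogenes that match Hnrnpa3 over at least 50% of their length at 90% identity or more, and the closest, AL592433.1, matches at 99.3% over its 1069 bases. AL592433.1 stood at 0.617, 0.436 and 0.904 TPM in the controls and at 1.16, 0.498, 0.0972 and 0.734 TPM in the shKmt2f libraries. The 4 pseudogenes together stood at 1.99, 2.04 and 2.54 TPM in the controls and at 2.84, 2.47, 2.95 and 3.66 TPM in the shKmt2f libraries. Both the closest one and the sum overlapped between the groups, and whether reads were shared between them and Hnrnpa3-207 was not tested. Among the genes whose sums tracked the Hnrnpa3 sum most closely over the 7 libraries, of 8814 protein-coding genes compared, were the proteasome subunit Psma4 (Pearson r = 0.984), the histone acetyltransferase Hat1 (0.977), Phf14 (0.969) and Ccdc77 (0.965). They are the extreme of many and are given as a description.

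The remaining members ranged widely in level. In the controls the order of the gene sums was Hnrnpk (3085.0 ± 419.7 TPM), Hnrnpa2b1 (1199.4 ± 90.6), Hnrnpu (604.8 ± 292.5), Hnrnpd (385.6 ± 59.9), Hnrnpl (323.4 ± 45.7), Hnrnpm (230.6 ± 49.6), Hnrnpc (223.6 ± 11.9), Hnrnpa1 (216.8 ± 18.0), Hnrnpa3 (28.0 ± 4.82) and Hnrnpa0 (7.19 ± 0.767; SD, n = 3 for each). Hnrnpu, Hnrnpd and Hnrnpl overlapped as neighbours in this order, as did Hnrnpm, Hnrnpc and Hnrnpa1. In the shKmt2f libraries Hnrnpu, at 984.1 ± 117.1 TPM, again followed Hnrnpa2b1, at 1358.4 ± 75.3 TPM (SD, n = 4 for each).

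**Figure D3:**
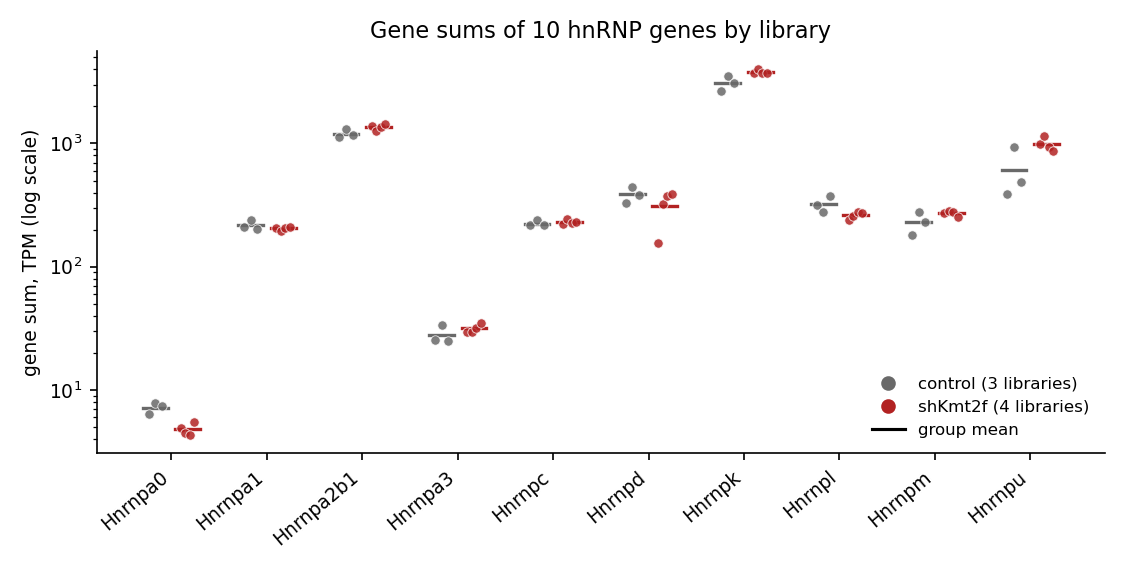
Summed TPM of the 10 hnRNP genes on a log scale, with each library as a point (grey, 3 control; red, 4 shKmt2f) and group means as short lines. Hnrnpa0 and Hnrnpl lie lower and Hnrnpk higher in all shKmt2f libraries than in all controls, and the groups overlap for the other 7 genes.

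In the gene sums, 3 of the 10 members had groups that did not overlap, where 28.9% of the 12456 genes tested did so. The fit across all genes called 0 of the 10 at an adjusted p under 0.05, where it called 14.1% of genes. These counts are a description, since the members were chosen with this contrast known. Hnrnpa0, a single-exon member of the A/B class, stood at 6.35, 7.85 and 7.38 TPM in the controls and at 4.87, 4.46, 4.31 and 5.44 TPM in the shKmt2f libraries, lower in each of the 4 (log2 fold change -0.51, SE 0.15). Hnrnpk, which binds C-rich RNA and DNA through KH domains, stood at 2667.3, 3506.7 and 3081.0 TPM and at 3742.1, 4020.3, 3707.5 and 3716.5 TPM (0.31, SE 0.11). With each library corrected for GC content and then length, the log2 fold change of Hnrnpk was 0.09 (SE 0.14), and it was 0.18 under median-ratio scaling. Hnrnpl, which binds CA repeats, stood at 318.3, 280.5 and 371.5 TPM and at 239.4, 259.1, 277.7 and 273.8 TPM (-0.29, SE 0.12, and -0.17, SE 0.12, with that correction). Control replicate 2 came close to the shKmt2f libraries in both Hnrnpk and Hnrnpl. Without that library the fit called 4 of the 10 members, Hnrnpk, Hnrnpl, Hnrnpm and Hnrnpu, where it called 24.3% of 12374 genes.

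Hnrnpu, also known as scaffold attachment factor A, had the largest log2 fold change of the sums, 0.80 (SE 0.27), with overlapping groups. Its sum was 392.0, 938.3 and 484.1 TPM in the controls and 990.5, 1144.1, 930.3 and 871.6 TPM in the shKmt2f libraries, so control replicate 2 lay among the shKmt2f values. The 2 low controls are those with the positive GC slopes. With the correction on GC content and length, the log2 fold change was 0.52 (SE 0.23). Its transcripts kept their proportions: Hnrnpu-209, a nonsense_mediated_decay model of only 351 bases, made up between 45.3% and 47.9% of the sum in all 7 libraries, and Hnrnpu-208, Hnrnpu-206 and Hnrnpu-203 overlapped between the groups as well. The coding transcript Hnrnpu-201, of 7640 bases, held between 2.80% and 3.15% of the TPM. It stood at 12, 26.2 and 13.7 TPM in the controls and at 30.1, 33.7, 26.9 and 27.4 TPM in the shKmt2f libraries, just without overlap.

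Hnrnpd, which encodes AUF1, a binder of AU-rich elements in messenger RNA, was set apart by 1 library. Its sum was 326.4, 446.2 and 384.2 TPM in the controls and 154.6, 324.3, 371.7 and 385.6 TPM in the shKmt2f libraries. The log2 fold change was -0.39 (SE 0.31), and -0.09 without shKmt2f replicate 1. The low sum of that library was shared by its main transcripts: Hnrnpd-210 (protein_coding) was at 61.3 TPM and Hnrnpd-204 and Hnrnpd-209 (nonsense_mediated_decay) at 42.7 and 29.4 TPM, the lowest value of the 7 for each. In shares, Hnrnpd-204 made up 26.7% ± 0.882 of the sum in the controls and 27.2% ± 0.527 in the shKmt2f libraries, Hnrnpd-209 made up 19.1% ± 0.623 and 20.1% ± 0.867, and Hnrnpd-210 made up 40.9% ± 1.54 and 40.4% ± 0.572 (SD, n = 3 and n = 4). The low-share decay model Hnrnpd-208 was the exception, at 16.3, 10.2 and 9.29 TPM in the controls and 2.67, 3.73, 3.73 and 0 TPM in the shKmt2f libraries, with no overlap. It lies outside the rule for named transcripts and was picked after its values were seen.

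The other sums overlapped between the groups. Hnrnpa1, a repressor of splicing, was at 216.8 ± 18.0 and 204.2 ± 7.27 TPM (-0.08, SE 0.09), Hnrnpa2b1 at 1199.4 ± 90.6 and 1358.4 ± 75.3 TPM (0.18, SE 0.09), Hnrnpc at 223.6 ± 11.9 and 231.7 ± 10.2 TPM (0.05, SE 0.09) and Hnrnpm at 230.6 ± 49.6 and 273.9 ± 13.0 TPM (0.27, SE 0.14; SD, n = 3 and n = 4). The Hnrnpa3 sum had a log2 fold change of 0.18 (SE 0.14). With the correction on GC content and length Hnrnpa1 was at -0.40 (SE 0.09) and was called, as were 5.6% of all genes. Under median-ratio scaling Hnrnpa1 was at -0.21. With the same correction the signs turned for Hnrnpa2b1 (-0.26), Hnrnpa3 (-0.28) and Hnrnpc (-0.18), and under median-ratio scaling for Hnrnpc (-0.07). The sign of these 3 small differences is thus not fixed by these data. Hnrnpa1 is also uncertain because RP23-316M11.8, a pseudogene of 151 bases that matches it at 98.6%, was listed at 1908.6 to 2414.9 TPM, far above the gene itself, and reads may have been shared between them.

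Among shares of single transcripts, the fit called 0.109% of 24702 and 1 of 40 members tested. Among TPM values, it called 2.24% of 37024 transcripts and 1 of 83 members tested. In both cases the member was Hnrnpa3-207, the transcript for which the members were chosen, which passed the filters only through the shKmt2f libraries, so these calls repeat the choice and are no test of it. In the authors' deposited table, Hnrnpa3-207 and Hnrnpa0-201 are the 2 of 91 with a q-value under 0.05, which 5.52% of all transcripts reach. The shares of 8 of the 40 did not overlap between the groups, against 11.5% of transcripts in the fit, and of the TPM values 22 of 83, against 21.6%. Over all 91 transcripts, without the filter of the fit, the shares of 10 did not overlap, 5 of them higher and 5 lower in the shKmt2f libraries. The matching percent over all transcripts without that filter was not worked out. Shares within a gene are tied, since a rise in any of them lowers the others, so the split by direction is a description only.

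**Figure D4:**
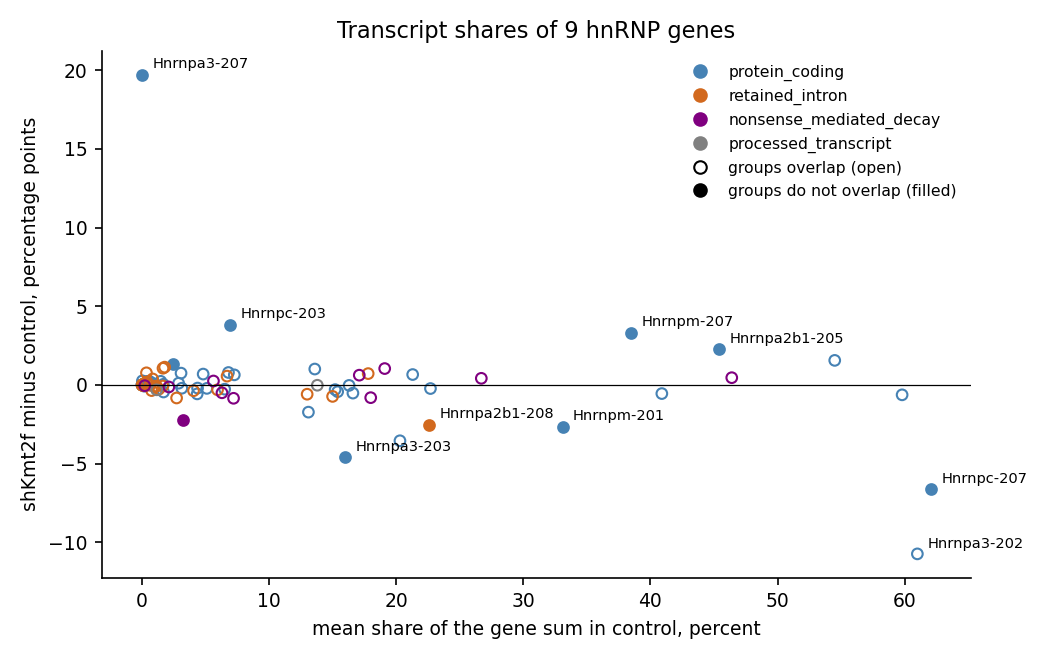
Difference of mean share, shKmt2f minus control in percentage points, against the mean share in control for the 90 transcripts of the 9 genes with several. Filled points are transcripts whose groups do not overlap, and colours give the transcript type. Hnrnpa3-207 lies at 19.72 points, and Hnrnpa3-202 and Hnrnpc-207 at -10.74 and -6.61 points.

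Hnrnpc, whose C1 and C2 proteins form tetramers that package nascent transcripts, had the next largest shift in shares. Hnrnpc-207 (1301 bases) made up 63.3%, 59.9% and 63.1% of the sum in the controls and 55.4%, 55.5%, 56.5% and 54.6% in the shKmt2f libraries. Hnrnpc-203 (582 bases) made up 7.04%, 7.67% and 6.13% and then 10.3%, 10.9%, 10.7% and 11.2%. Neither overlapped, while the Hnrnpc sum did. Weighted by length the share differences were 1.67 points for Hnrnpc-203 and -5.42 points for Hnrnpc-207, in place of 3.83 and -6.61 points. In TPM, Hnrnpc-203 went from 15.3, 18.2 and 13.3 to 23.0, 26.9, 24.2 and 25.9, a log2 fold change of 0.66 (SE 0.13), and Hnrnpc-207 from 138.7 ± 3.06 to 128.6 ± 5.55 (SD, n = 3 and n = 4). Hnrnpc-213, below the rule for named transcripts and chosen after its values were seen, made up 2.44% ± 0.454 and 3.78% ± 0.446, also with no overlap.

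The C2 protein differs from C1 by 13 codons, the last 39 bases of an exon at chr14:52081789-52081827 (minus strand), which is printed because it separates the forms by sequence.
Hnrnpc C2 stretch: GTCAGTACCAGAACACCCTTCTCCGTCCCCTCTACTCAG
Forms with this stretch made up 10.1%, 12.5% and 12.4% of the TPM of Hnrnpc forms that hold or lack it in the controls and 15.2%, 13.6%, 14.3% and 13.6% in the shKmt2f libraries. The groups did not overlap, and weighted by length the values were 20.4% ± 2.08 and 24.3% ± 1.11 (SD, n = 3 and n = 4).

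Hnrnpa2b1 encodes A2 and the longer B1, which bind RNA in splicing and transport. Exon B1 adds 12 codons near the start, from chr6:51467391-51467426 on the minus strand.
Hnrnpa2b1 exon B1: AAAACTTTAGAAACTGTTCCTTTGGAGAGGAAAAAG
The form that holds it, Hnrnpa2b1-203, made up 15.6%, 16.4% and 15.6% of the TPM of forms that hold or lack the exon in the controls and 11.8%, 10.5%, 18.6% and 18.3% in the shKmt2f libraries. The shKmt2f libraries lay on both sides of the controls, with replicates 1 and 2 low and 3 and 4 high. The exon of 120 bases in the glycine-rich region was held by 80.9% ± 1.05 and 78.6% ± 1.58, with overlap. Of the single transcripts, the retained_intron form Hnrnpa2b1-208 made up 22.9%, 21.9% and 23.0% of the sum in the controls and 20%, 19.7%, 20% and 20.7% in the shKmt2f libraries, and the short coding form Hnrnpa2b1-205 (466 bases) made up 45.4% ± 0.777 and 47.6% ± 0.401, neither with overlap. The difference of Hnrnpa2b1-205, 2.27 points, was 1.29 points weighted by length and 0.64 points among protein_coding transcripts only. Hnrnpa2b1-204, the leading form by TPM times length, held 16.3% ± 0.616 and 16.2% ± 1.12 (SD, n = 3 and n = 4 throughout).

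**Figure D5:**
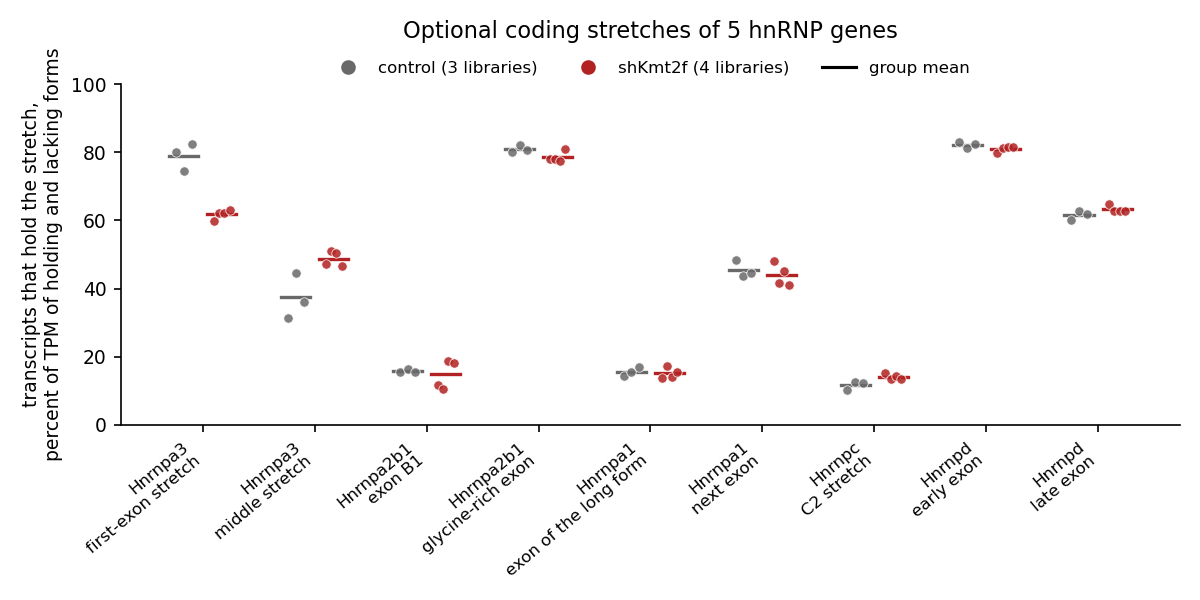
Percent of TPM in transcripts that hold each of 9 optional coding stretches, out of the transcripts that hold or lack it, for 5 hnRNP genes. Points are libraries (grey, 3 control; red, 4 shKmt2f) and short lines group means; the groups do not overlap for both Hnrnpa3 stretches and the Hnrnpc C2 stretch.

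The optional exons of Hnrnpa1 and Hnrnpd overlapped between the groups. The 159-base exon that marks the long form of Hnrnpa1 was held by 15.6% ± 1.38 in the controls and 15.1% ± 1.56 in the shKmt2f libraries. For Hnrnpd, the early exon of 57 bases was held by 82.2% ± 0.898 and 81.0% ± 0.726 and the late exon of 147 bases by 61.6% ± 1.5 and 63.3% ± 0.933 (SD, n = 3 and n = 4). The late-exon values rest mostly on decay models, Hnrnpd-204 with the exon (102.9 TPM in the controls) and Hnrnpd-209 without it (73.6 TPM). The early exon was held almost only by the 493-base Hnrnpd-210 (158.5 TPM in the controls). These percentages are therefore not the usage among full coding forms. Of the Hnrnpa1 transcripts, Hnrnpa1-205 led with 54.5% ± 2.56 and 56.0% ± 3.30, Hnrnpa1-202 held 22.7% ± 2.92 and 22.5% ± 4.92 and Hnrnpa1-201 held 15.4% ± 1.47 and 14.9% ± 1.55. No form of Hnrnpa1 or exon of Hnrnpd differed beyond the spread between libraries.

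Hnrnpm, a splicing regulator that binds GU-rich RNA, had a pair of shares without overlap. Hnrnpm-201 made up 32.2%, 33.5% and 33.8% of the sum in the controls and 29.5%, 30.7%, 29.8% and 32.0% in the shKmt2f libraries, and the short Hnrnpm-207 (729 bases) made up 38.8%, 39.9% and 36.7% and then 41.6%, 41.3%, 42.5% and 41.8%. Hnrnpm-202 and Hnrnpm-204 overlapped. In Hnrnpk and Hnrnpl no share of a named transcript separated the groups. Hnrnpk-223, the leading form of Hnrnpk, made up 21.3% ± 0.501 and 22% ± 0.213, Hnrnpk-215 made up 17.8% ± 1.13 and 18.5% ± 0.63, Hnrnpk-213 made up 15.2% ± 0.767 and 14.9% ± 0.337, Hnrnpk-217 made up 15.0% ± 0.299 and 14.2% ± 0.778 and Hnrnpk-212 made up 13.0% ± 0.696 and 12.4% ± 0.237. Hnrnpl-204 and Hnrnpl-202 made up 59.8% ± 1.84 and 16.6% ± 0.464 in the controls and 59.2% ± 1.36 and 16.1% ± 1.59 in the shKmt2f libraries (SD, n = 3 and n = 4). The higher Hnrnpk sum was thus spread over its forms. The 59 transcripts outside the rule each had a mean share of at most 7.91%, and their differences lay between -2.26 and 1.34 points.

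The make-up by transcript type set the genes apart more than the groups. Transcripts of nonsense_mediated_decay type held 80.1% to 82.9% of the Hnrnpu sum and 49.4% to 52.3% of the Hnrnpd sum over the 7 libraries, and retained_intron transcripts held 51.0% to 53.1% of Hnrnpk and 23.8% to 27.9% of Hnrnpa2b1. In Hnrnpa2b1 the groups differed within that range. Its retained_intron transcripts held 27.0% ± 0.77 in the controls and 24.2% ± 0.422 in the shKmt2f libraries, and its protein_coding transcripts 73.0% ± 0.77 and 75.8% ± 0.422 (SD, n = 3 and n = 4). In Hnrnpm and Hnrnpc, protein_coding transcripts held at least 96.8%. Summed over all members, retained_intron transcripts held 31.8% ± 0.901 of the TPM in the controls and 31.5% ± 0.588 in the shKmt2f libraries, and nonsense_mediated_decay transcripts 14.1% ± 2.65 and 16.2% ± 0.790 (SD, n = 3 and n = 4), with overlap. Short models of any type often led by TPM: the leading transcript was under 1 kb in 6 of 9 genes, and by TPM times length in 2 of 9.

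The same types were compared over all genes other than the members, a measure that the choice of members did not use. Retained_intron transcripts held 10.3% ± 0.617 of the TPM in the controls and 10.3% ± 0.309 in the shKmt2f libraries (exact permutation test, two-sided, p = 0.971), and nonsense_mediated_decay transcripts 3.53% ± 0.114 and 3.59% ± 0.105 (exact p = 0.571). Protein_coding transcripts held 42.8%, 45.0% and 44.5% in the controls and 45.9%, 46.9%, 45.3% and 45.5% in the shKmt2f libraries (exact p = 0.0286; 0.143 when adjusted over the 5 types). Pseudogenes held 28.5% ± 2.27 and 26.4% ± 1.43 (exact p = 0.229) and processed_transcript 13.6% ± 0.508 and 13.7% ± 0.312 (exact p = 0.914; SD, n = 3 and n = 4). Since 0.0286 is the smallest p that 35 splits can give, a type that reached it alone could not fall below 0.143 after adjustment in this design. Weighted by transcript length, the retained_intron difference was -0.41 points (exact p = 0.0571) in place of 0.04 points.

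Of 18 other hnRNP genes and close relatives, 2 were higher and 1 lower in the fit across all genes, which called 14.1% of 12456 genes, and the list's median log2 fold change was 0.10 against 0.09 over all genes. Hnrnpr rose from 211.3, 278.7 and 236.0 TPM in the controls to 338.8, 378.0, 323.1 and 370.6 TPM in the shKmt2f libraries (log2 fold change 0.55, SE 0.12, limma adjusted p = 0.0267). Hnrnph1, which binds G-rich splicing elements, rose from 2454.0 ± 422.7 to 3321.4 ± 258.5 TPM (0.45, SE 0.13, limma adjusted p = 0.05, just under the threshold). Over protein_coding transcripts only, its log2 fold change was 0.14 (limma adjusted p = 0.437), and the call was also lost with a pseudocount of 0.1, without a filter, with median-ratio scaling and with the replicate block (limma adjusted p between 0.052 and 0.108). The poly(C)-binding gene Pcbp2 fell from 94.3, 109.0 and 100.3 TPM to 82.8, 78.0, 71.5 and 81.2 TPM (-0.36, SE 0.10, limma adjusted p = 0.048), a call lost without a filter, weighted by length and with the replicate block (limma adjusted p between 0.0597 and 0.142). With the correction on GC content and length 0 of the 18 were called, with log2 fold changes of 0.35 for Hnrnpr, 0.50 for Hnrnph1 and -0.27 for Pcbp2. Leaving out any library other than control replicate 2 ended the calls of Hnrnpr (limma adjusted p between 0.0507 and 0.0838) and Hnrnph1 (between 0.0739 and 0.145), and leaving out any library ended that of Pcbp2 (between 0.0689 and 0.117).

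Nonsense-mediated decay removes transcripts with a premature stop codon. Of 16 genes of this pathway and of the exon junction complex, 1 was higher and 0 lower, against the 14.1% of genes called, and the list's median was -0.03 on the log2 scale against 0.09 over all genes. The gene that rose was Upf2, a core factor of the pathway, from 1.34, 2.97 and 1.20 TPM in the controls to 5.26, 4.11, 4.00 and 3.83 TPM in the shKmt2f libraries (0.95, SE 0.23, limma adjusted p = 0.0332). The central helicase Upf1 stood at 11.3 ± 5.58 and 9.42 ± 0.879 TPM (SD, n = 3 and n = 4, limma adjusted p = 0.725). The call of Upf2 was also lost with the correction on GC content and length, which left 0 of the 16 called and gave Upf2 a log2 fold change of 0.47, and without any library other than control replicate 2 (limma adjusted p between 0.065 and 0.11).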

How the data were processed

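Transcripts were measured in 3 control and 4 shKmt2f libraries made from 1 ng of total RNA. The submitters' processing notes name Salmon 0.11.3, sleuth 0.30.0 and the build GRCm38.p6. Per the file headers, the authors deposited for each library 1 row per transcript in TPM, which keeps no read counts, so depth is unknown and no count test or counting interval is given. The authors also deposited p-value, q-value and effect columns, the effect on a natural log scale, which were identical in all 7 tables and are printed only in sentences that name that table. Of 55475 rows, 71 hold no TPM.

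A gene sum adds the TPM of its listed transcripts. Fits used limma 3.58.1 (R 4.3.3) with trended, robust priors, on log2(TPM + 1) of genes or transcripts that reached 1 TPM in at least 3 libraries. Shares of a gene's TPM were fitted as arcsine square roots, for shares of at least 0.05 in at least 3 libraries of genes with at least 5 TPM in each library. Benjamini-Hochberg adjustment ran over all features tested, with a threshold of 0.05. Single library values were compared by exact permutation. The fits were tested on simulated data: with a change of 1 on the log2 scale added, 57% of 100 changed genes were recovered among 12456, and with a change of 2, 96%. Among 37024 transcript levels these were 26% and 69%, and among 24702 shares 11% and 83% for changes of 0.1 and 0.3 on the arcsine scale.

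Positions, lengths and sequences are from GENCODE M21 (GRCm38). All 91 transcripts matched by identifier, 89 of them with the same version. Pseudogenes were matched with blastn 2.17.0. The tests had been planned for either counts or TPM. The members and gene lists were chosen with earlier results of these data known, so no p is given for a member. Named are all 10 genes, the Hnrnpa3 transcripts, other transcripts with a mean share of at least 10% or a difference of at least 5 points, list genes past the threshold, Setd1a and the 5 genes most like Hnrnpa3, of which 1 is not reported here. Alternatives were a pseudocount of 0.1, no filter, median-ratio scaling, a loess correction on GC content and length, the replicate number as a block, weighting by length, coding transcripts only, added pseudogenes, other share filters and leaving out each library.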

Additional observations from a re-analysis of the deposited data

Results flagged for a closer look

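Of 88 sets of 4 shKmt2f values, 7 held a library set apart from the other 3 by a gap that was large against the range of the group. Chance flags about 1 in 20 such sets, and the sets overlap in the transcripts they use. No explanation was tested.

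In shKmt2f replicate 2 the Hnrnpk sum was 4020.3 TPM, where the other 3 libraries lay between 3707.5 and 3742.1 TPM. Its transcripts Hnrnpk-212 at 511.1 TPM and Hnrnpk-223 at 875.2 TPM stood out in the same library, the others reaching at most 461.2 and 825.7 TPM. Hnrnpa3-203 was low there, at 3.03 TPM against 3.72 to 3.85 TPM. Processed_transcript models of genes other than the members held 14.1% of TPM in that library, against 13.5% to 13.6%.

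In shKmt2f replicate 1, the library with the low Hnrnpd sum, forms with the early exon of Hnrnpd held 79.9%, against 81.3% to 81.4% in the other 3 libraries. Forms with the late exon held 64.7%, against 62.8% to 62.9%.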

How the results depend on the processing

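Weighted by length the share difference of Hnrnpa3-207 was 11.68 points instead of 19.72, with pseudogenes added (an alternative chosen after seeing the data) 18.02. Asking for 5 TPM, also chosen after seeing the data, left 3 of the 36 transcripts at 0 in the controls. Transcripts called numbered 828, and 365 with a pseudocount of 0.1, 302 without a filter and 496 with the GC and length correction. Genes called numbered 1755, and 697 with that correction, which called 0 genes on both the other hnRNP and the decay list. Shares called numbered 27, and 43 for genes of at least 1 TPM and 11 among coding transcripts. Of the 10 gene sums, 0 were called, but 1 with median-ratio scaling (Hnrnpa0), 1 with the GC and length correction (Hnrnpa1), 1 weighted by length (Hnrnpa0) and 2 over coding transcripts (Hnrnpa0 and Hnrnpu). In that order, these settings called 15.4%, 5.6%, 16.1% and 17.5% of all genes tested, so the member counts are a description only. Over all genes tested, the median log2 fold change of 0.09 became -0.02 with median-ratio scaling, and the share of higher calls went from 73.8% to 56.6%. The causes were not tested.

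With the replicate number as a block, 1 transcript and 0 shares were called in all, 0 of them members, and 1 member gene (Hnrnpu), where 11.1% of all genes were called. The deviations of same-numbered libraries correlated by 0.060 to 0.079, so the numbers are not taken to pair the samples, and not every library correlated best with its own number.

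Leaving out each library gave 63 to 4393 transcripts (1 to 13 members), 283 to 3004 genes (0 to 4 members), 6 to 293 shares (1 to 3 members), 0 to 5 other hnRNP genes and 0 to 2 decay genes. Each highest count came without control replicate 2, where 12.1% of all transcripts, 24.3% of all genes and 1.21% of all shares tested were called. The difference in protein_coding share of other genes was 1.17 to 2.28 points, in designs too small to pass 0.05. The share difference of Hnrnpa3-207 stayed between 18.59 and 20.69 points.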

Other observations

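A few values outside the comparisons stood apart by library. RP23-252G18.2, a processed pseudogene identical to an Hnrnpa1 transcript over its whole 960 bases, was at 2.76 TPM in control replicate 1 and between 19.6 and 35.7 TPM in the other 6 libraries, while the Hnrnpa1 sum of that control, 209.0 TPM, lay within the range of the others. Pcbp1, the relative of Pcbp2, was at 76.8 TPM in shKmt2f replicate 1, the library with the low Hnrnpd sum, and between 129.7 and 189.4 TPM elsewhere. The only listed pseudogene that matches Hnrnpl at 90% identity or more over at least 50% of its length, itself at 94.4%, was also lowest in that library, at 18.2 TPM against 32.6 to 69.7 TPM.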
